A study of Mus musculus with 4 samples.

Results

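The apelin and adrenomedullin peptide systems were followed through 7 genes, *Apln*, *Aplnr*, *Adm*, *Calcrl*, *Ramp1*, *Ramp2* and *Ramp3*, in endothelial cells (ECs), hypertrophic chondrocytes (CHOs) and the other cell classes of mouse long bone. The genes were chosen by name, as the rows of the count matrices that carry these symbols, and make up 7 of 53703 features. No count of these genes was used to choose a cell, and none of them is in a list of markers that defined a cell class.

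Apelin, the product of *Apln*, is a secreted peptide that acts on the G protein-coupled receptor APLNR, and in growing vessels *Apln* is known as a gene of tip cells while *Aplnr* marks capillary and venous ECs. Adrenomedullin, the product of *Adm*, is a vasodilator peptide that is also needed for the vascular and lymphatic endothelium. Its receptor is made of CALCRL and a receptor activity-modifying protein (RAMP): CALCRL with RAMP2 or RAMP3 binds adrenomedullin, and CALCRL with RAMP1 binds calcitonin gene-related peptide. *Apln* and *Adm* are both known to be induced by low oxygen.

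Single-cell RNA sequencing (scRNA-seq) was done on non-hematopoietic cells of the metaphysis of femur and tibia from 12-week-old mice on a C57/BL6 background. The study used both sexes, but the sex of the mice behind each library is not given in the sources used here. The 2 mutant libraries (Lats2iΔEC, labelled Lats2iECKO) came from mice with *Lats2* lox/lox alleles and the Cdh5(PAC)-CreERT2 transgene, and the 2 control libraries from Cre-negative littermates. Both groups had received tamoxifen, and the paper does not state the *Lats2* alleles of the controls. The *Cdh5* promoter limits the recombinase to ECs, so that CHOs and stromal cells of the mutants kept *Lats2*. The libraries held 69636600 to 85899079 UMIs, 24599 barcodes passed every filter, and the median barcode held 7574 to 8181 UMIs. In ECs *Lats2* was at 134 and 120 CPM (counts in each 1000000 of the summed counts) in controls and 92.0 and 95.8 in mutants, a log2 fold change of -0.38 ± 0.08 (SE, adjusted p = 0.000522, edgeR's quasi-likelihood test). Of the EC subtypes named below, only arterial-like ECs had a call for *Lats2* in this test. Tip-like ECs had 104 and 121 CPM in controls and 84.9 and 100 in mutants (adjusted p = 0.582). CreERT2 was read at 0.674 and 0.878 CPM in control ECs (4 and 5 counts) and at 54.5 and 49.2 CPM in mutant ECs. Of these control counts, 4 and 1 were in tip-like ECs and 0 and 4 in *Vwf*-type ECs. Pairs of libraries shared 6 to 16 barcodes, against 4.44 to 6.8 for independent draws. Whether a library came from 1 animal or from a pool is not given in the sources used here, so the p-values measure the spread between libraries.

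Cells were placed in classes by the number of marker genes above free RNA, with at least 1000 UMIs and 800 genes per barcode. The EC gate took 2686 barcodes, most of which fell into arterial-like, sinusoidal-like, *Vwf*-type, tip-like and capillary-like subtypes while 340 fell into none and count only among all ECs, and 1313 barcodes passed as hypertrophic CHOs. The tip-like gate is narrow, with 279 barcodes in it, 96 of them at the minimum of 3 markers and 543 ECs 1 marker below. The median tip-like EC carried 10 of 12 endothelial, 4 of 8 tip and 5 of 7 capillary markers, and the median hypertrophic CHO carried 5 of 8 hypertrophic and 8 of 12 CHO markers. In tip-like ECs the capillary markers summed to 3582 to 5530 CPM, above the tip markers (1888 to 3443 CPM) in every library. The capillary-like gate took only ECs that no other subtype had taken, so ECs that passed both gates were not counted as capillary-like. Summed endothelial markers stood at 40.0 to 62.2 CPM in hypertrophic CHOs and at 8382 to 12575 CPM in tip-like ECs. In all classes below, a value is a CPM of summed counts of a class in 1 library, a change passed when its adjusted p was at most 0.05, and n is 2 libraries per group.

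The genes lie apart in the mouse genome (GRCm39). *Apln* (ENSMUSG00000037010) is on chromosome X from 47114019 to 47123775, *Adm* (ENSMUSG00000030790) on chromosome 7 from 110226858 to 110229027, *Aplnr* (ENSMUSG00000044338) on chromosome 2 from 84966569 to 84970267, and *Calcrl* (ENSMUSG00000059588) on the same chromosome from 84160957 to 84255755. *Ramp1* (ENSMUSG00000034353) is on chromosome 1 from 91107540 to 91152918, *Ramp2* (ENSMUSG00000001240) on chromosome 11 from 101136358 to 101150419, and *Ramp3* (ENSMUSG00000041046) on chromosome 11 from 6608511 to 6627475. The annotation read for these positions, a later release than the GENCODE M26 of the counts, places *Lrrc55os* over *Aplnr* and *Vps25* over *Ramp2* on the same strand. Where this also holds for M26, which was not checked, reads in the overlaps cannot be told apart. *Adm*, *Calcrl* and *Ramp3* overlap annotated genes of the other strand.

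The promoters of the ligand genes are shown because *Apln*, *Adm* and the related *Adm2* were all higher in mutant hypertrophic CHOs. RefSeq sequences (GRCm38.p6) matched 5 of the 7 genes, all but *Aplnr* and *Ramp2*. Each sequence holds the 250 bases before the start of the gene, read 5′ to 3′ on the gene's strand. Capitals mark the core of the hypoxia response element, ACGTG or GCGTG on either strand. The *Apln* window is chrX:48034854-48035103 on the minus strand, that of *Adm* is chr7:110627407-110627656 on the plus strand, and that of *Adm2* is chr15:89322470-89322719 on the plus strand.
Apln: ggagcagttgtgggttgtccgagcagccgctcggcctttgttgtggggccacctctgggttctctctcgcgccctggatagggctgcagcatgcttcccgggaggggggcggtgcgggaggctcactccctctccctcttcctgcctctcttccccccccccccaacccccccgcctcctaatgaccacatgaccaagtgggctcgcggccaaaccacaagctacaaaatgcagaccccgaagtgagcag
Adm: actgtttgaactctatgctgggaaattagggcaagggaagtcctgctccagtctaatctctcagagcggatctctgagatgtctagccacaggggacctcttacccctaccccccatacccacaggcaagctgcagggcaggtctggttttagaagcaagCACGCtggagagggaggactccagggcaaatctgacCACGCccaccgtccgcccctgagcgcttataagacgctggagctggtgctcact
Adm2: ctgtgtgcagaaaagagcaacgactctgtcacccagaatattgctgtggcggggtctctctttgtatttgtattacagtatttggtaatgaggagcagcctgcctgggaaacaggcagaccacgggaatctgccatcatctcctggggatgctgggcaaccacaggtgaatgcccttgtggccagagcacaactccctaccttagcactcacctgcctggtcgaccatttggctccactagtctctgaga

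The *Adm* promoter held GCGTG on the minus strand at 2 places, 90 to 86 and 54 to 50 bases before the start. *Ramp3* also held 2 matches, while *Apln*, *Adm2*, *Calcrl* and *Ramp1* held 0. Of 32851 promoters of this length, 38.6% held at least 1 match and 16.7% at least 2, counting both strands, so a single match is common. GGAATG, the core bound by TEAD factors, was found once in the *Ramp3* window and in 12.6% of all promoters. A match is a run of letters and was not tested for binding.

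*Apln*, the apelin ligand, was low in control bone outside the ECs and was called higher in mutant ECs and hypertrophic CHOs. Osteogenic stromal cells (0.484 to 0.533 CPM in controls, 8.81 to 9.87 in mutants) were not tested. Neither were pericyte-like cells (0 against 3.32 to 6.6 CPM) and contractile smooth muscle cells (0 against 0 to 0.883 CPM). Free RNA held more *Apln* in mutants as well, at 49.8 and 59.1 against 2.29 and 2.44 CPM. Over all ECs its level was 29.3 and 31.1 CPM in controls and 307 and 354 CPM in mutants, 10.9-fold higher, with no overlap of the groups (log2 fold change 3.51 ± 0.10, adjusted p = 2.18e-13). Of the 7 genes, 5 passed the filter on low values in all ECs, 1 was called higher and 3 lower. Of all 6043 genes tested there, 59.4% were called, 29.1% higher and 30.3% lower.

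The tip-like ECs carried the highest *Apln* level in both genotypes. It stood at 162 and 244 CPM in controls and at 1061 and 1145 CPM in mutants (log2 fold change 2.52 ± 0.18, adjusted p = 1.15e-06). A count of *Apln* was present in 14 of 50 and 12 of 42 control tip-like ECs, and in 65 of 79 (82.3%, 95% Wilson interval 72.4 to 89.1%) and 86 of 108 (79.6%, 71.1 to 86.1%) mutant ones. After thinning to 3000 UMIs per cell, which left out 3 control and 2 mutant cells below that depth, the shares were 10.6% and 19.0% in controls and 69.6% and 72.6% in mutants. Single barcodes weighed on the control level, since 34 of 63 and 62 of 85 counts came from 1 barcode each; without the highest barcode of every library the log2 fold change was 3.92. Of the 6 genes tested in tip-like ECs, 2 were called higher (*Apln* and *Adm*) and 3 lower, against 11.1% of all tested genes called higher, 12.0% lower and 23.1% in either direction.

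*Apln* also rose in capillary-like ECs, from 47.4 and 23.0 CPM to 178 and 324 CPM (2.98 ± 0.30, adjusted p = 1.56e-06), where 11.8% of genes were called. In sinusoidal-like ECs it went from 21.2 and 22.8 CPM to 344 and 183 CPM (3.59 ± 0.25, adjusted p = 4.81e-06), where 20.8% of genes were called. In the first mutant library 219 of the 308 sinusoidal counts came from 1 barcode, and without the highest barcodes the change was 2.82. The *Vwf*-type ECs had 22.6 and 12.1 CPM in controls and 75.4 and 77.8 CPM in mutants, and arterial-like ECs 2.08 and 0 CPM against 73.6 and 2.18 CPM. Both classes were below the filter on low values, and 51 of 102 and 2 of 3 arterial counts of the mutant libraries came from 1 barcode each. In controls the order ran from tip-like over capillary-like ECs to sinusoidal-like and *Vwf*-type ECs, the last 2 of which overlapped. In mutants sinusoidal-like and capillary-like ECs overlapped below the tip-like ECs.

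**Figure D1:**
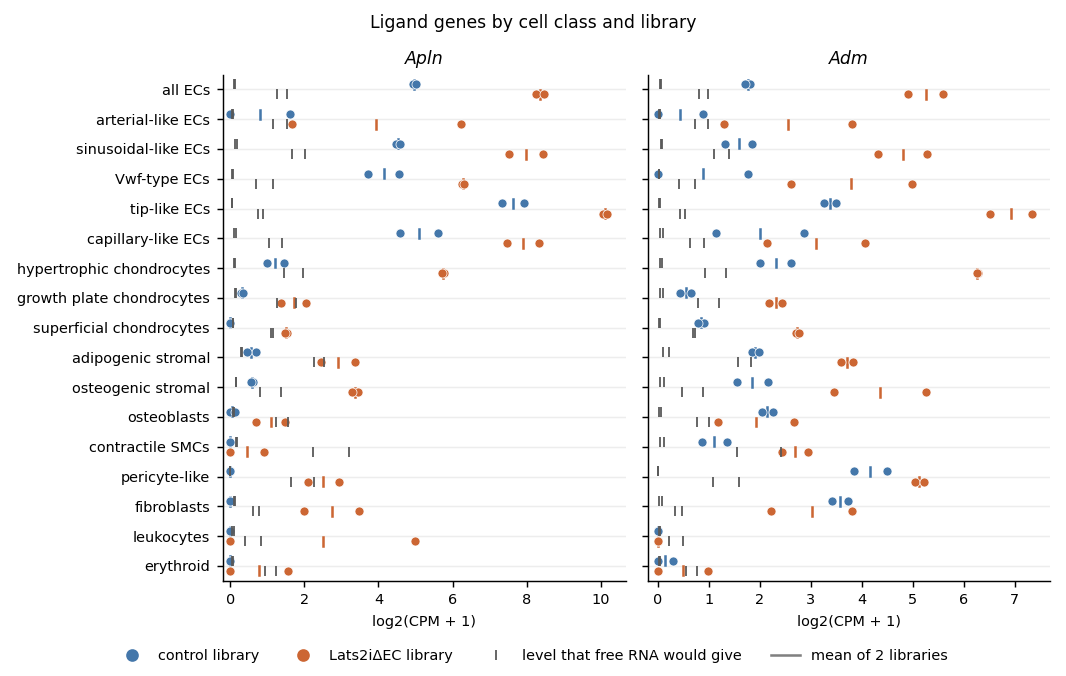
Levels of *Apln* and *Adm* as log2(CPM + 1) on the x axis in each cell class on the y axis, with 1 point per library, a line at the mean of 2 libraries and grey ticks at the level that free RNA would give. Mutant libraries lie right of the controls for *Apln* in tip-like ECs (1061 and 1145 against 162 and 244 CPM) and for both ligands in hypertrophic CHOs (*Adm* 77.0 and 75.3 against 3.02 and 5.14 CPM).

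Hypertrophic CHOs, the enlarged cartilage cells at the border of growth plate and bone, had nearly no *Apln* in controls, with 1.01 and 1.71 CPM from 3 and 5 counts. In mutants they reached 53.4 and 51.6 CPM, 38.6-fold higher (log2 fold change 5.30 ± 0.23, adjusted p = 4.37e-07). This SE is scaled from the test statistic and can be too small with so few control counts. Free RNA, measured in droplets with 10 to 100 UMIs, would give these mutant cells 1.73 and 2.88 CPM. A count of *Apln* was found in 3 of 166 and 3 of 163 control cells, and in 170 of 491 and 164 of 493 mutant cells, that is 34.6% (95% Wilson interval 30.5 to 38.9%) and 33.3% (29.3 to 37.5%). Erythroid cells, which should lack the gene, had it in 2 of 86 cells (2.33%) of the first mutant library, at a median of 8710 UMIs, and in 0 of 87 of the second, which allows a share of up to 3.45% (3 counts in 87 cells).

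*Adm* changed in the same cell class. Hypertrophic CHOs had 3.02 and 5.14 CPM of *Adm* in controls and 77.0 and 75.3 CPM in mutants, 18.7-fold higher (4.27 ± 0.18, adjusted p = 4.14e-07). *Adm* was counted in 8 and 12 control cells and in 202 and 212 mutant cells, and both ligands were counted together in 1 and 1 control cells and in 79 and 83 mutant cells. In mutants *Apln* was counted in 39.1% and 39.2% of cells with *Adm* and in 31.5% and 28.8% of cells without it, not adjusted for depth. The mutant cells were the shallower ones, with median UMIs of 10421 and 10405 against 17582 and 17713. At 3000 UMIs per cell, reached by 162 of 166 and 159 of 163 control and 478 of 491 and 477 of 493 mutant cells, *Adm* was present in 20.5% and 19.5% of mutant and 1.23% and 1.26% of control cells, and *Apln* in 14.0% and 15.9% against 0.617% and 1.26%. Of the 7 genes, 4 were tested in hypertrophic CHOs, 2 were called higher and 0 lower, while 25.6% of all tested genes were called higher, 24.5% lower and 50.2% in either direction. The filter needs a count in 20% of the cells of either genotype, and in this class *Apln* and *Adm* met it only in mutants, so the count of called genes is no support. The same holds for *Adm* in tip-like ECs and for *Apln* in all ECs and in sinusoidal-like and capillary-like ECs, and with no gene filter these 6 differences were called as well. *Ramp3* met it only in controls in all ECs and arterial-like ECs.

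Other properties of hypertrophic CHOs moved with genotype. The summed CHO markers were at 35630 and 34785 CPM in mutants and 68175 and 71924 CPM in controls, and the mitochondrial share was 0.860% and 1.01% against 4.19% and 4.29%. The class also took cells that passed no other gate. These were 120 of 491 and 141 of 493 mutant cells and 6 of 166 and 4 of 163 control cells. Among cells that also passed the CHO gate, *Apln* was at 51.6 and 40.6 CPM in mutants and 1.03 and 1.73 CPM in controls, and *Adm* at 70.3 and 61.0 against 3.08 and 4.5 CPM. In the mutant cells that did not pass it, *Apln* was at 63.3 and 101 CPM and *Adm* at 112 and 140 CPM. The 8 markers of the hypertrophic gate, which chose the cells, also stood at unlike levels. *Col10a1*, the collagen of hypertrophic cartilage, was at 22072 and 21190 CPM in mutants and 21527 and 20034 CPM in controls, with overlap of the groups. *Alpl*, the phosphatase of mineralizing cartilage, was at 858 and 855 CPM in mutants and 2639 and 2808 CPM in controls, and *Pth1r*, the receptor of parathyroid hormone-related protein, at 1528 and 1482 against 3104 and 3216 CPM. *Mef2c*, a transcription factor of hypertrophy, was at 1069 and 1161 against 2115 and 1898 CPM, *Panx3* at 171 and 192 against 423 and 453 CPM, and *Slc13a5* at 38.6 and 43.3 against 144 and 184 CPM. *Mmp13*, a collagenase of late hypertrophic cells, was at 683 and 659 against 389 and 182 CPM, and *Ihh*, the Indian hedgehog ligand, at 859 and 869 against 666 and 712 CPM. In mutant cells that did not pass the CHO gate, *Alpl* was at 101 and 127 CPM and *Mmp13* at 2004 and 1719 CPM. In mutant cells that passed it they were at 1000 and 1018 CPM and at 436 and 423 CPM. The part of these differences in the ligand levels was not tested.

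*Adm* was tested in 1 other class, the tip-like ECs. Its level was 10.3 and 8.62 CPM in controls and 160 and 90.2 CPM in mutants (3.73 ± 0.47, adjusted p = 9.54e-05). The controls of this class rest on 4 and 3 counts. The remaining classes were below the filter for *Adm* and were not tested. All ECs together had 2.53 and 2.28 CPM in controls and 47.2 and 29.1 CPM in mutants, adipogenic stromal cells 2.58 and 2.97 against 13.1 and 11.1 CPM, and growth plate CHOs 0.577 and 0.35 against 3.53 and 4.43 CPM, without overlap of the groups. Of the others, pericyte-like cells had 21.4 and 13.4 CPM in controls and 31.9 and 36.1 CPM in mutants, and osteogenic stromal cells 3.47 and 1.94 against 37.2 and 9.99 CPM. Fibroblasts overlapped, at 12.2 and 9.74 against 3.69 and 13.0 CPM. The control order of *Adm* was led by pericyte-like cells, followed by fibroblasts and tip-like ECs, whose ranges overlapped. In mutants tip-like ECs came first, then hypertrophic CHOs, then pericyte-like cells, and these 3 classes did not overlap.

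The counts of each ligand were also read by the class that held them. ECs held 76.7% and 89.4% of all *Apln* counts in controls and 67.1% and 75.1% in mutants, and hypertrophic CHOs 1.32% (95% Wilson interval 0.45 to 3.81%) and 2.53% (1.08 to 5.77%) in controls and 14.7% (13.3 to 16.2%) and 11.0% (9.91 to 12.2%) in mutants. Hypertrophic CHOs themselves made up 2.44% and 2.40% of control and 9.59% and 8.37% of mutant barcodes. For *Adm*, osteoblasts held 26.8% and 23.5% and adipogenic stromal cells 19.0% and 22.1% of the control counts, on totals of 153 and 149 counts. In mutants, with 1407 and 1533 counts, hypertrophic CHOs held 34.0% (31.5 to 36.5%) and 30.1% (27.8 to 32.4%), tip-like ECs 10.2% and 8.61%, and barcodes that passed no gate 22.2% and 28.2%. These shares are set by the number of sampled cells of a class as well as by the level in them. Their intervals take each count as independent and can be too narrow. In the second control library 1 barcode held 62 of the 177 *Apln* counts of ECs.

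**Figure D2:**
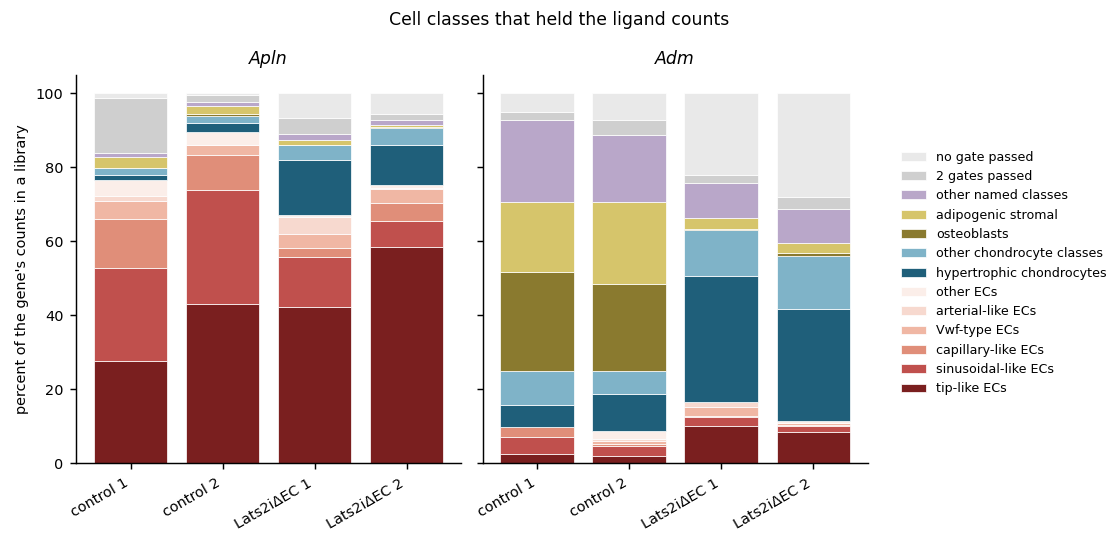
Share of the *Apln* and *Adm* counts of each library, in percent on the y axis, held by each cell class (coloured segments) in the 4 libraries on the x axis. The hypertrophic CHO segment of *Adm* is 5.88% and 10.1% in controls and 34.0% and 30.1% in mutants, and ECs hold 67.1% to 89.4% of *Apln* in all 4 libraries.

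*Aplnr*, the receptor of apelin, was confined to ECs at this depth, with at most 2.41 CPM in any other class of any library, and fell in mutants. Over all ECs it was at 319 and 275 CPM in controls and 131 and 143 CPM in mutants (-1.05 ± 0.08, adjusted p = 2.57e-08). Tip-like ECs went from 440 and 422 CPM to 142 and 150 CPM (-1.48 ± 0.14, adjusted p = 9.1e-06). The cells with the highest *Apln* had, in mutants, about the *Aplnr* level of *Vwf*-type ECs, whereas in controls their range overlapped that of capillary-like ECs, which had the highest mean.

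Mutant levels of *Aplnr* were lower in the other subtypes too, but not every difference passed. Sinusoidal-like ECs had 442 and 361 CPM in controls and 255 and 279 CPM in mutants (-0.55 ± 0.12, adjusted p = 0.0088), a call that was lost without the first control library (adjusted p = 0.0934), with no gene filter (0.124) and with the stricter gate (0.0541). *Vwf*-type ECs had 241 and 220 against 161 and 132 CPM (-0.67 ± 0.17, adjusted p = 0.0461), where 3.60% of genes were called; it was lost under 6 of 13 alternatives, with an adjusted p of 0.0776 without the first control library, 0.2 without the second mutant library, 0.115 with DESeq2, 0.0762 with no gene filter, 0.0601 with the stricter gate and 0.053 with free RNA subtracted. Capillary-like ECs had 503 and 366 against 243 and 322 CPM and did not pass (-0.54 ± 0.18, adjusted p = 0.0608). Without the second mutant library this difference passed (-0.77, adjusted p = 0.0129). Arterial-like ECs were below the filter at 44.4 and 32.4 against 18.0 and 8.0 CPM.

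*Calcrl*, the receptor subunit shared by adrenomedullin and calcitonin gene-related peptide, fell in ECs as well. Its level over all ECs was 444 and 414 CPM in controls and 233 and 263 CPM in mutants (-0.73 ± 0.07, adjusted p = 5.52e-07). Tip-like ECs had 533 and 503 CPM in controls and 202 and 199 CPM in mutants (-1.29 ± 0.14, adjusted p = 2.19e-05). Arterial-like ECs, the subtype with the least *Calcrl* in both genotypes, went from 225 and 198 to 129 and 80.3 CPM (-0.95 ± 0.18, adjusted p = 0.00246), where 19.9% of genes were called.

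In capillary-like ECs *Calcrl* was at 532 and 522 CPM in controls and 277 and 327 CPM in mutants (-0.73 ± 0.16, adjusted p = 0.00387), and the adjusted p was 0.0506 or 0.056 when the first or the second control library was left out. *Vwf*-type ECs, the highest class by mean in both genotypes, had 621 and 558 against 349 and 411 CPM (-0.64 ± 0.15, adjusted p = 0.0279). The call was lost without the first mutant library, and the mutant range overlapped that of sinusoidal-like ECs. Sinusoidal-like ECs had 503 and 444 against 269 and 401 CPM and did not pass (-0.46 ± 0.16, adjusted p = 0.0572), but passed without the second mutant library (-0.78, adjusted p = 1e-05) or the second control library (-0.53, adjusted p = 0.00985).

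Outside ECs *Calcrl* was measured in mural cells, without a call. Contractile smooth muscle cells (SMCs) had 67.4 and 47.4 CPM in controls and 55.2 and 48.4 CPM in mutants (adjusted p = 0.694), and pericyte-like cells 37.5 and 59.0 against 53.1 and 57.4 CPM (adjusted p = 0.377). Both pairs of ranges overlapped. Leukocytes, of which the mutants held 16 and 17 barcodes, had 55.5 and 41.7 against 7.87 and 0 CPM and were below the filter.

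**Figure D3:**
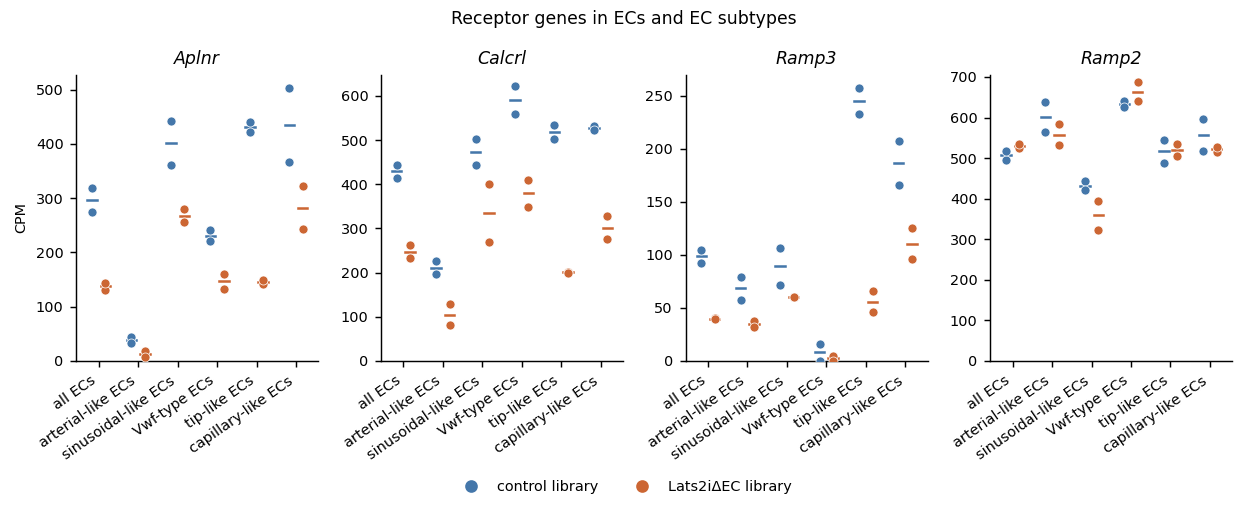
CPM of *Aplnr*, *Calcrl*, *Ramp3* and *Ramp2* on the y axis in all ECs and the 5 EC subtypes on the x axis, with 1 point per library and a line at the group mean. In tip-like ECs both mutants lie below both controls for *Aplnr* (142 and 150 against 440 and 422 CPM), *Calcrl* (202 and 199 against 533 and 503) and *Ramp3* (65.6 and 45.8 against 257 and 233), and the groups overlap for *Ramp2* (505 and 536 against 488 and 544).

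The RAMP genes did not move together. *Ramp3*, the partner that turns CALCRL into a second adrenomedullin receptor, was found in ECs and fell from 105 and 92.2 CPM to 40.4 and 39.1 CPM over all ECs (-1.25 ± 0.09, adjusted p = 6.28e-09). In tip-like ECs, its highest class in controls, it went from 257 and 233 to 65.6 and 45.8 CPM (-2.10 ± 0.20, adjusted p = 7.6e-06). In mutants capillary-like ECs were the highest class, at 95.7 and 125 CPM, above the range of tip-like ECs.

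*Ramp3* also fell in arterial-like ECs, from 79.1 and 57.9 to 37.5 and 32.0 CPM (-0.92 ± 0.20, adjusted p = 0.00646, 0.0681 without the first control library and 0.0532 with DESeq2). In capillary-like ECs the controls had 166 and 207 CPM (-0.68 ± 0.22, adjusted p = 0.0454), and the call was lost without the first mutant, the first control or the second control library (adjusted p = 0.12, 0.101 and 0.34), with DESeq2 (0.243) and with the looser gate (0.302). Sinusoidal-like ECs had 107 and 71.5 against 60.2 and 60.6 CPM (-0.52 ± 0.20, adjusted p = 0.0812), and passed without the second control library (-0.77, adjusted p = 0.00261). *Vwf*-type ECs had 16.5 and 0 against 5.09 and 0 CPM. By group means, the subtype with the most *Calcrl* was the one with the least *Ramp3* in both genotypes.

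*Ramp2*, the RAMP of the main endothelial adrenomedullin receptor, was high in every EC subtype and was not called in any of them. All ECs had 496 and 517 CPM in controls and 526 and 534 CPM in mutants (0.12 ± 0.06, adjusted p = 0.0949), and single libraries of the subtypes ranged from 323 to 688 CPM. Fibroblasts came next with 188 and 192 against 179 and 180 CPM, then adipogenic stromal cells with 66.7 and 67.6 against 63.9 and 70.1 CPM. Of the 16 classes in which *Ramp2* was tested, 1 passed, the growth plate CHOs, with 29.4 and 32.5 against 38.1 and 34.6 CPM (0.34 ± 0.09, adjusted p = 0.00419, 0.086 without the first control library and 0.166 with no gene filter), where 48.3% of genes were called. In classes where *Ramp2* did not pass, the share of all genes called was 8.33% in superficial CHOs, 38.3% in adipogenic stromal cells, 16.7% in contractile SMCs, 0.583% in fibroblasts and 13.6% in erythroid cells.

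*Ramp1*, the RAMP of the calcitonin gene-related peptide receptor, had the reverse distribution, with 2.06 to 3.71 CPM in all ECs and its highest control levels in osteoblasts, contractile SMCs and leukocytes, followed by hypertrophic CHOs, osteogenic stromal cells and pericyte-like cells. Growth plate and superficial CHOs had 7.37 to 11.2 CPM in controls. It rose in pericyte-like cells, from 53.6 and 91.2 CPM to 166 and 158 CPM (1.27 ± 0.21, adjusted p = 0.000143), where 34.4% of genes were called. It also rose in osteogenic stromal cells, from 73.1 and 81.4 to 140 and 132 CPM (0.89 ± 0.11, adjusted p = 9.99e-05), where 27.9% were called.

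Osteoblasts had the highest *Ramp1* level, 235 and 273 CPM in controls and 264 and 366 CPM in mutants (0.33 ± 0.09, adjusted p = 0.0211, 9.78% of genes called), but the ranges overlapped and the adjusted p was 0.675 without the second mutant and 0.553 without the first control library. Leukocytes had 147 and 125 against 283 and 119 CPM and did not pass (adjusted p = 0.826, 0.272% of genes called). Contractile SMCs, at 228 and 227 against 206 and 206 CPM, and hypertrophic CHOs, at 87.0 and 97.6 against 82.6 and 79.4 CPM, did not pass (adjusted p = 0.46 and 0.268). Hypertrophic CHOs carried *Ramp1* and *Ramp2* and had 0.672 to 4.62 CPM of *Calcrl* in controls and 0.644 to 1.96 CPM in mutants.

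**Figure D4:**
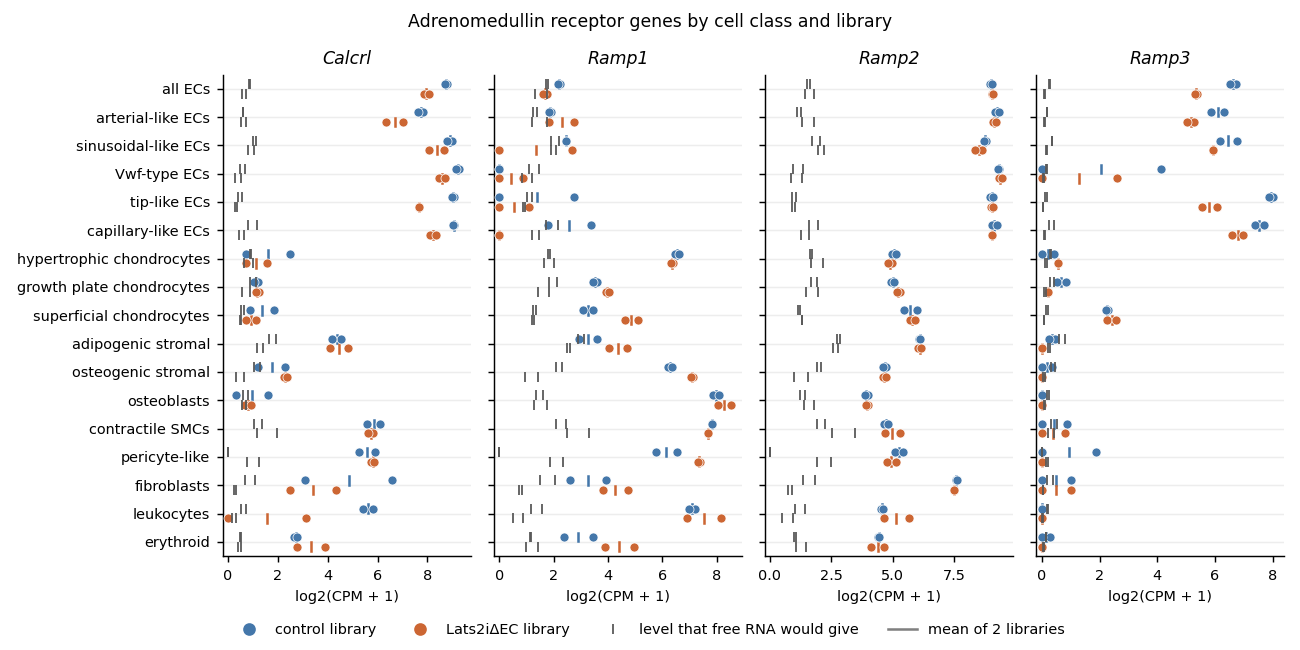
Levels of *Calcrl*, *Ramp1*, *Ramp2* and *Ramp3* as log2(CPM + 1) on the x axis in each cell class on the y axis, with 1 point per library, a line at the mean and grey ticks at the level that free RNA would give. *Calcrl*, *Ramp2* and *Ramp3* are highest in EC subtypes, and *Ramp1* is highest in osteoblasts (235 to 366 CPM) and near the free RNA level in ECs.

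The mix of EC subtypes differed between the genotypes as well. Tip-like ECs made up 6.29% and 5.44% of control and 15.9% and 17.4% of mutant ECs, and sinusoidal-like ECs 35.2% and 34.3% against 13.1% and 12.9%. With the subtype shares of the controls applied to all libraries, the log2 ratio of mutant to control means was 2.98 instead of 3.45 for *Apln* and 3.38 instead of 3.99 for *Adm*. It was -0.70 instead of -1.12 for *Aplnr*, -0.69 instead of -0.79 for *Calcrl* and -0.87 instead of -1.31 for *Ramp3*, and for all of these the libraries of the groups still did not overlap. For *Ramp2* it was -0.13 instead of 0.06.

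Whether the genotype effect differed between EC subtypes was tested in 1 fit over all 5 subtypes. Of the 6 genes tested, *Aplnr* was called (F test, adjusted p = 0.0491), where 6.0% of 8162 genes were called. Its effect in tip-like ECs differed from the mean of the other subtypes by -0.66 ± 0.21 on the log2 scale (adjusted p = 0.0814, with 4.97% of genes called). The *Aplnr* call was lost without the first control, the second control or the second mutant library (adjusted p = 0.311, 0.441 and 0.105). For *Apln*, *Adm*, *Calcrl*, *Ramp2* and *Ramp3* the adjusted p was 0.677, 0.81, 0.245, 0.6 and 0.0998, so subtypes with and without a call are not shown to differ. Without the first mutant library *Calcrl* passed (adjusted p = 0.00915), and without the second mutant library *Apln* passed (adjusted p = 0.013). With no gene filter *Apln* and *Ramp3* passed (adjusted p = 0.000588 and 0.000314), and with the stricter gate *Calcrl* passed (adjusted p = 0.0457).

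**Figure D5:**
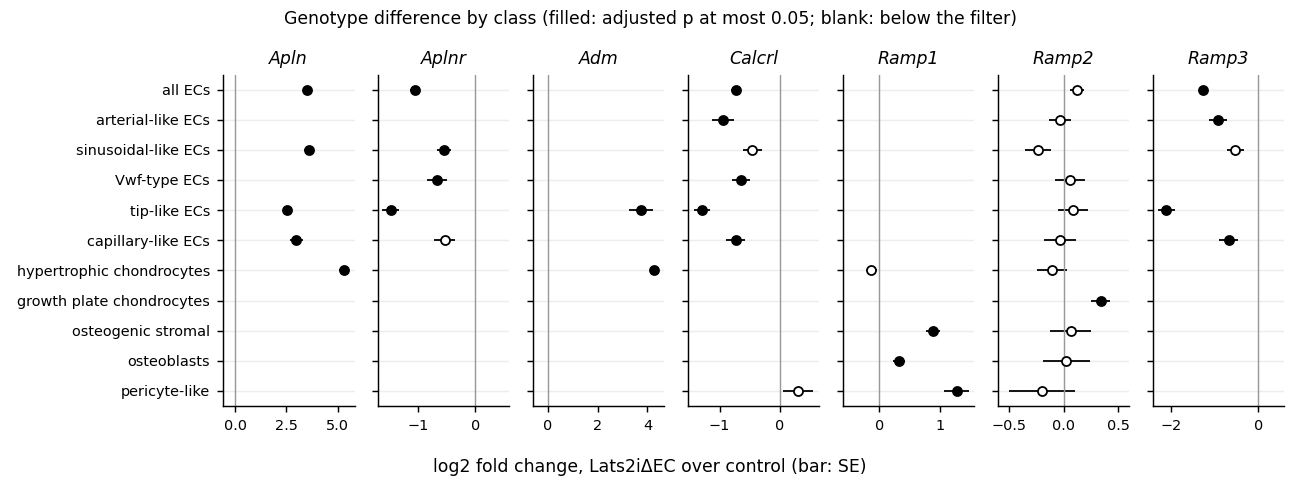
Log2 fold change of mutant over control on the x axis for each of the 7 genes in 11 cell classes on the y axis, filled where the adjusted p was at most 0.05 and blank where the gene was below the filter. Bars show the SE scaled from the test statistic, which can be too small for genes with few counts. *Apln* lies between 2.52 and 5.30 and *Adm* at 3.73 and 4.27, whereas *Aplnr* and *Ramp3* lie below 0 wherever they were tested, *Calcrl* lies below 0 in all ECs and the EC subtypes, and *Ramp2* lies near 0.

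A list of 14 further genes of both systems was read in the same fits. *Ackr3*, an atypical receptor that binds CXCL12 and adrenomedullin, was at 25.5 and 34.2 CPM in control and 288 and 302 CPM in mutant hypertrophic CHOs (3.36 ± 0.12, adjusted p = 1.66e-07). In all ECs it went from 28.8 and 34.8 to 91.6 and 80.1 CPM (1.49 ± 0.10, adjusted p = 6.28e-09). *Adm2*, which encodes the related peptide intermedin, was at 2.02 and 1.71 against 28.2 and 20.9 CPM in hypertrophic CHOs (3.76 ± 0.34, adjusted p = 2.26e-05). *Gpr182*, an endothelial scavenging receptor once proposed to bind adrenomedullin, fell in all ECs from 129 and 132 to 50.3 and 51.2 CPM (-1.30 ± 0.07, adjusted p = 5.4e-10) and in tip-like ECs from 54.0 and 48.8 to 11.1 and 10.3 CPM (-2.19 ± 0.32, adjusted p = 0.000312).

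In all ECs 4 of the 14 genes passed the filter, 3 were called higher (*Ackr3*, *Pam* and *Furin*) and 1 lower (*Gpr182*), with a median log2 fold change of 0.24 and 59.4% of all genes called. In tip-like ECs 5 were tested, 1 was higher and 1 lower (*Gpr182*, which met the filter only through the controls), with 23.1% of all genes called. In hypertrophic CHOs, with 50.2% called, 4 were tested, 2 were higher (*Ackr3*, and *Adm2*, which met the filter only through the mutants) and 1 lower, the amidating enzyme gene *Pam* (480 and 452 against 320 and 354 CPM). In growth plate CHOs, with 48.3% called, 3 were tested and 2 were higher, *Pam*, and *Ackr3*, which met the filter only through the mutants as it did in all ECs. In superficial CHOs, with 8.33% called, 3 were tested, 0 were higher and 1 was lower, *Ackr3*. In adipogenic stromal cells, with 38.3% called, 4 were tested, 1 was higher and 2 were lower, *Pam* among them. *Furin*, a protease that cleaves propeptides, was not called in hypertrophic CHOs (89.7 and 81.3 against 87.7 and 96.8 CPM). *Apela*, *Calca*, *Calcb*, *Iapp* and *Calcr* passed the filter in no class.

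A list of 12 hypoxia-inducible genes was read in the same fits. In hypertrophic CHOs 11 passed the filter and all 11 were called higher, where 25.6% of all genes were. *Egln3*, *Ankrd37* and *Ndrg1* met the filter only through the mutants, and of the 8 genes that met it in both genotypes 8 were called higher. The 11 genes had a median log2 fold change of 2.98 against -0.01 over all genes tested. *Egln3*, an oxygen-sensing hydroxylase gene, was at 0.672 and 0.342 CPM in controls and 41.5 and 45.1 CPM in mutants, and *Vegfa* at 152 and 131 against 612 and 558 CPM. In tip-like ECs 6 of 9 were called higher, where 11.1% of all genes were, with a median of 1.35 (3 of the 5 that met the filter in both genotypes), and *Pgk1* was at 60.0 and 69.0 against 344 and 270 CPM. In sinusoidal-like ECs, where *Apln* was also called higher, 4 of 8 genes of the list were (median 0.53), and in capillary-like ECs 1 of 5 (median 0.31), with 10.4% and 6.50% of all genes called higher. Where the ligands were below the filter, 9 of 10 were called higher in growth plate CHOs, where 25.4% of all genes were, and 7 of 7 in osteogenic stromal cells, where 14.9% were. Of those that met the filter in both genotypes, the counts were 7 of 8 and 5 of 5. In other classes without a tested ligand they were 3 of 4 in pericyte-like cells, 3 of 4 in adipogenic stromal cells and 4 of 6 in osteoblasts. They were 4 of 10 in superficial CHOs, 2 of 5 in arterial-like ECs, 2 of 6 in *Vwf*-type ECs and 2 of 6 in fibroblasts. Erythroid cells had 1 of 4, leukocytes 0 of 3 and contractile SMCs 1 of 5, with 1 lower. The share of all genes called in either direction was 34.4% in pericyte-like cells, 38.3% in adipogenic stromal cells and 9.78% in osteoblasts. It was 8.33% in superficial CHOs, 19.9% in arterial-like ECs, 3.60% in *Vwf*-type ECs and 0.583% in fibroblasts. In erythroid cells it was 13.6%, in leukocytes 0.272% and in contractile SMCs 16.7%. These shares take both directions over all genes tested, whereas the counts are of genes called higher. The part of this list in the ligand levels was not tested.

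Likeness of pattern was read as Pearson's r of log2(CPM + 1) over 64 sums (16 classes in 4 libraries) among 11394 genes, as a description, since the sums share libraries and cell classes. *Aplnr* was most like *Nr5a2* (r = 0.98), *Fam167b* (0.97) and *Gm32688* (0.97). *Apln* was most like *Gm46565* (0.81), *Prnd* (0.80) and *Gm17103* (0.80). *Adm* had weaker matches, *Cdkn2b* (0.76), *Hmox1* (0.64) and *Trappc3* (0.63), as had *Ramp1*, with *Ptprs* (0.79), *Satb1* (0.79) and *Rnf150* (0.76). *Calcrl* was most like *Ppp1r2* (0.93), *Cdc42ep2* (0.92) and *Ifi203* (0.91). *Ramp2* was most like *Gm42892* (0.96), *Abcb1a* (0.95) and *Palmd* (0.95), and *Ramp3* most like *Ces2e* (0.95), *2610203C22Rik* (0.92) and *Kcnq1* (0.92).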

How the data were processed

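The 4 scRNA-seq libraries (10x Chromium v3) were sequenced from cells depleted of hematopoietic lineages. The authors trimmed reads with cutadapt 3.5, aligned them with STARsolo 2.7.10a to GRCm39 with GENCODE M26 extended by the CreERT2 and reporter sequences, and counted exons and introns. The deposited values are expected counts for all barcodes, not normalized, where the EM option splits reads that map to more than 1 gene. No cell annotation was used from the files, so classes were rebuilt and can differ from those of the study. 0 columns of per-sample values were left unused.

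Barcodes needed at least 1000 UMIs, 800 genes, at most 15% mitochondrial and 5% hemoglobin counts, and a complexity (log10 of genes over log10 of UMIs) of at least 0.8. A marker counted as present at a count of at least 1 plus 3 times the level that a free RNA share of 5% would give. Free RNA was read from droplets of 10 to 100 UMIs, and each class needed a fixed minimum of its markers. EC subtypes were assigned in the order arterial-like, sinusoidal-like, *Vwf*-type, tip-like and capillary-like, each from the ECs left by those before. Comparisons between subtypes depend on this order. No doublet caller was run. Where a barcode passed more than 1 gate, the gate with the largest fraction of its markers present led. The 788 barcodes with a lead below 0.15 over the next gate and the 4217 that passed none were set aside. Barcodes with a larger lead stayed in the leading class, and the contractile SMC and pericyte-like gates did not compete with each other. Barcodes holding 2 cell types can thus remain. Barcodes that passed the hypertrophic gate alone were kept as hypertrophic CHOs and are not among the 4217. Counts were summed per library and class, rounded, and tested between genotypes with edgeR 4.0.16 (quasi-likelihood, TMM, R 4.3.3) over all genes that passed filterByExpr and had a count in 20% of cells of either genotype, with Benjamini-Hochberg adjustment over all genes of a class. SE was the log2 fold change over the root of F, so it was scaled from the test statistic rather than taken from the fit. For genes with few counts in a group it can be smaller than counting error alone. Classes were compared with each other as a description. In simulated counts with known changes, 99.0% of genes changed by 1 (log2) were recovered in all ECs and 97.0% in hypertrophic CHOs. In the fit over subtypes, 94.5% of genes given a larger change in tip-like ECs alone were recovered (median estimated difference 1.93). Genes of few counts were not among those changed, and the simulated spread between libraries was fixed rather than taken from these data. The recovered shares thus do not give the power for *Apln* or *Adm* in the EC subtypes.

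The genes named were the 7 members, those of the lists of 14 and 12 genes, and for each member the 3 genes most like it in pattern among those reaching 20 CPM in a class mean. 1 gene of the list of 14 is not reported here. Members and lists were chosen with earlier results of these data known, and the rules were then kept. Alternatives were DESeq2 1.42.0, RLE size factors, no gene filter, stricter and looser gates and cell filters, free RNA subtracted, a replicate block and each library left out. Intervals (95%, Wilson) cover counting error only. Sequences came from RefSeq tables of GRCm38.p6.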

Additional observations from a re-analysis of the deposited data

Results flagged for a closer look

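The effect of genotype on *Aplnr* differed between EC subtypes by the F test over subtypes (adjusted p = 0.0491, Benjamini-Hochberg over 8162 genes). This call was lost without the second mutant library (adjusted p = 0.105), the first control library (0.311) or the second control library (0.441) and with the strict cell filter (0.0678), and no single subtype passed against the mean of the others (tip-like ECs, adjusted p = 0.0814). The log2 fold changes that passed ran from -1.48 in tip-like ECs to -0.55 in sinusoidal-like ECs, both mutants being below both controls in each.

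*Ramp1* was above both controls in both mutants in 2 tested classes, osteogenic stromal cells and pericyte-like cells, and below them in hypertrophic CHOs and contractile SMCs. Besides all ECs together, *Ramp2* was above in 2 tested classes, *Vwf*-type ECs and growth plate CHOs, and below in sinusoidal-like ECs and fibroblasts. Between the EC subtypes the *Ramp2* difference was not called (F test, adjusted p = 0.6). The other differences between classes were not tested.

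Barcodes outside the named classes also carried the ligands. In barcodes that passed no gate, *Apln* was at 21.2 and 19.5 CPM in mutants against 0.724 and 0.236 CPM in controls, and *Adm* at 43.5 and 51.4 CPM against 1.93 and 2.60 CPM. In droplets of 10 to 100 UMIs, *Apln* was at 49.8 and 59.1 CPM in mutants against 2.29 and 2.44 CPM in controls, and *Adm* at 25.9 and 31.2 CPM against 1.52 and 0.733 CPM.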

How the results depend on the processing

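Of the 24 calls of a member in a class, 16 kept their side of the threshold and their direction under every alternative run, 8 were lost under at least 1, and 0 were reversed. The uncalled *Calcrl* difference in contractile SMCs changed sign, from -0.14 to 0.13 without control replicate 1 (-0.39 to 0.13 over libraries left out) and to 0.0084 with barcodes filtered on 1000 UMIs and 800 genes only. In EC subtypes 14 calls became 9 to 15 when 1 library was left out (9 without control replicate 1), in CHO classes 3 became 2 to 3, and in other stromal classes 3 became 2 to 3; with no gene filter CHO classes had 6 and other stromal classes 10. For the difference between subtypes, the 1 call became 3 with no gene filter, 2 with the stricter gate, 0 with the strict cell filter and 0 to 2 when 1 library was left out. In all ECs 4 calls held under every alternative and were 5 with no gene filter. The class with the highest control mean changed for 1 member with each other gate: *Ramp3* became highest in capillary-like ECs with the stricter and *Aplnr* in sinusoidal-like ECs with the looser gate. Same-numbered libraries did not deviate together (correlation -0.12 to 0.079 over classes). This cannot show whether they share a litter or a preparation, and the sources used here do not say whether the numbers mark pairs. With the replicate block the counts were 4 in all ECs, 17 in EC subtypes, 3 in CHO classes and 3 in other stromal classes. Over all genes, the calls in all ECs went from 3587 to 3497 and those in hypertrophic CHOs from 3574 to 3436. They rose in each EC subtype, from 1597 to 1822 in tip-like ECs. Crossing the pairs gave 3686 calls against 3540 in growth plate CHOs and 974 against 874 in erythroid cells. A lone library left in a group was assumed to vary like the other group. The call of *Ramp1* in osteoblasts was lost under 6 of 13 alternatives, that of *Ramp3* in capillary-like ECs under 5 and that of *Aplnr* in sinusoidal-like ECs under 3. At this depth a gene counted in fewer than 20% of cells was not tested, which left out *Adm* in all classes but tip-like ECs and hypertrophic CHOs, and *Apln* and *Aplnr* in arterial-like ECs.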
